A study of Mus musculus with 2 samples.

Results

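The genes described here are the 3 members of the Snail family (Snai1, Snai2 and Snai3), the other transcription factors of the epithelial-mesenchymal transition (EMT) Zeb1, Zeb2 and Twist1, the cadherin genes Cdh1 and Cdh2, and the mesenchymal genes Vim and Fn1. They were chosen by name: every non-control probe whose gene name in the scanner files was 1 of these 10 was taken, which gave 12 probes at 21 spots on each array, of 31894 gene names in all. A single probe measured each of 8 of the genes, and Cdh2 and Zeb2 had 2 probes each. Liver RNA was hybridized to 1-colour Agilent arrays, with 1 array for a wild-type C57BL/6 mouse and 1 for a C57BL/6 mouse whose genotype is given as Alb-Cre;CAG-floxed neo-Snail. In the first allele the albumin promoter, a hepatocyte promoter, drives Cre recombinase. The second carries Snail under the ubiquitous CAG promoter with a floxed neo cassette. The sources used here do not give age, sex, the number of animals behind each RNA sample or the presence of a tumour in the tissue. The study concerns fatty liver inflammation and tumour formation in mice whose hepatocytes carry Snail, and the 2 arrays set the transcripts of such a liver beside those of a normal one.

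EMT is the change in which epithelial cells lose their junctions and take on mesenchymal traits. Snail proteins are zinc-finger repressors that bind E-box sequences and are best known for repressing Cdh1, the gene of E-cadherin, while the Zeb factors and Twist1 act on overlapping targets. In normal liver, E-cadherin is made by bile duct cells and by hepatocytes near the portal veins, N-cadherin by hepatocytes in general, plasma fibronectin by hepatocytes, and vimentin by stellate, endothelial and immune cells.

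The probes of Snai1, Snai2, Cdh1 and Vim are shown because the results turn on them. Each is 60 bases long, and bases 1 to 30 from its 5′ end are printed, with the position of the whole probe on mm9.
Snai1, chr2:167368073-167368132, plus strand: gtttcacagcagtttaactgtctcagaagg
Snai2, chr16:14709361-14709420, plus strand: gtgaggtacggttaatagccacgcctatat
Cdh1, chr8:109193812-109193871, plus strand: acattctaacgggaaaaaggagacaagacc
Vim, chr2:13504232-13504291, plus strand: gcagtttttcaggagcgcaagatagatttg
The sources used here do not say in which exon or untranslated region each probe lies. For Snai1 this leaves unknown whether transcripts of the transgene hold the probe's sequence at all.

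All comparisons are log2 differences or folds of signals divided by the 75th percentile of their own array, the library labelled Snail against wild-type. That percentile was 232.7 for wild-type and 302.1 for the other array, so an equal raw signal on the 2 arrays is a lower scaled signal in the library labelled Snail. With 1 array per group there was no replicate and no test. The error given after ± is the scanner software's own error estimate of the 2 signals, carried over to the log2 difference. It covers array noise and no difference between animals. By the software's call, 50.7% of wild-type spots and 54.0% of those of the other array were well above background, controls left out, and 0 were saturated. All 10 hepatocyte markers examined were well above background on both arrays.

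Cdh1 was 15.2-fold lower in the library labelled Snail, Snai2 stood 23.4-fold lower as observed, and no member was at least 2-fold higher. Vim and Zeb2 had the highest positive differences and Fn1 a negative one, each under 2-fold, and Snai1 itself was not higher at its probe. Of the 10 genes, 7 were well above background on both arrays, Snai2 only in wild-type liver, and Snai3 and Twist1 on neither. At least 2-fold lower was 1 of the 7 measured genes, beside 6.34% of 15467 genes measured on both arrays, and at least 2-fold higher were 0 of 7, beside 3.96%. With Snai2 included the lower count was 2 of 8, beside 7.16% of 17323 genes well above background on at least 1 array, and the higher count 0 of 8, beside 4.92%. The median log2 difference of the 7 genes was -0.17, against -0.03 over all genes, with 3 above 0 and 4 below. Of all genes measured on both arrays, 52.6% were below 0.

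**Figure D1:**
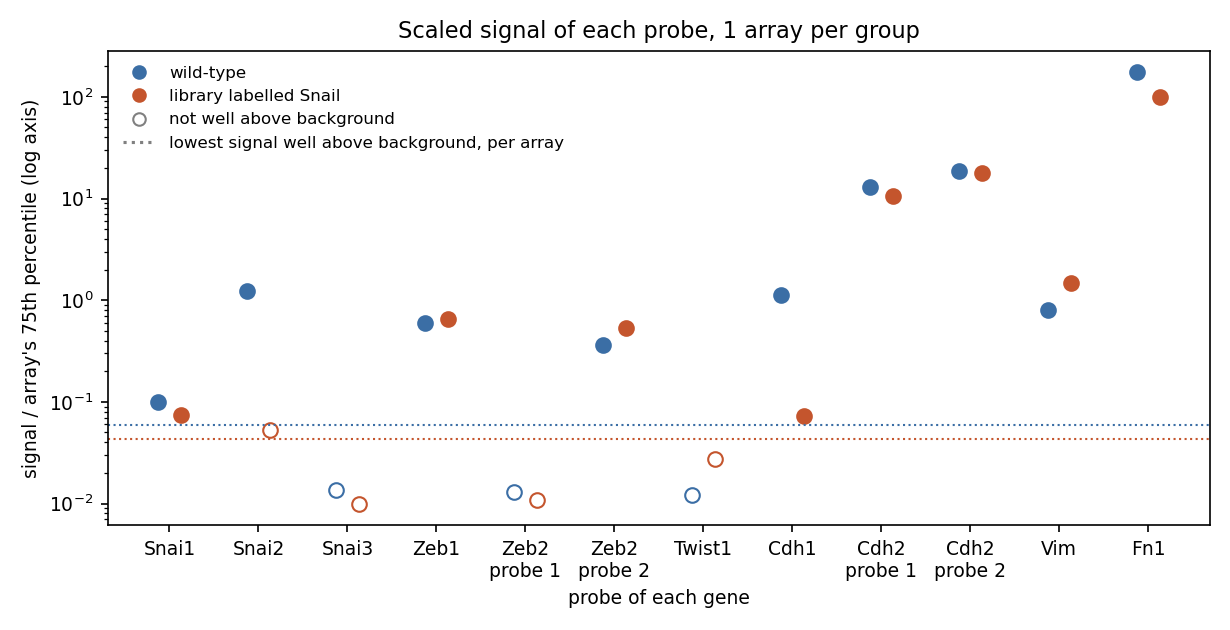
Signal of each of the 12 probes divided by the 75th percentile of its array (log axis), for wild-type liver (blue) and the library labelled Snail (orange), 1 array each; open circles were not well above background and dotted lines mark the lowest signal that was. The wide gaps are those of Snai2 and Cdh1, where the orange point lies near the dotted lines; heights of different probes are not comparable with each other.

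Snai1 encodes Snail, the factor that the transgene carries. Its processed signals were 23.2 and 22.3, wild-type liver first, both above the lowest signals called well above background, 13.8 and 12.9. The 2 signals were nearly equal before scaling. The log2 difference of scaled signals was -0.44 ± 0.32, a value little larger than its error. It also lies close to -0.47, the difference that scaling gives a probe at the lowest signal well above background on both arrays. Of all measured genes, 20.3% had a lower difference, so Snai1 lay well inside the bulk of the array. Since its probe gave no rise, the second sample is called the library labelled Snail throughout. Whether the probe can report the transgene is unknown, for the reason given with its sequence.

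Snai2 encodes Slug, the closest relative of Snail and also an E-box repressor. Wild-type liver gave a signal of 288.6 at its probe, and the library labelled Snail gave 16.0. The second value was above the local background by the software's significance call but not well above background. The observed ratio of scaled signals was 23.4-fold lower, or -4.55 on the log2 scale. It is given as observed and not as a limit, because the dim spot was itself brighter than the lowest signal well above background. With normexp background correction, which adds an offset to every signal and so draws ratios of dim signals toward 1, the ratio was 5.14-fold lower. Another transcription factor of mesenchymal cells, Prrx1, was also well above background only in wild-type liver, at 1 of its 2 probes. That probe gave signals of 81.6 and 3.11 and was at least 8.21-fold lower, and the other probe failed the background call on both arrays.

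Hepatic stellate cells are the liver's resident pericytes, and their markers moved in the same direction as Snai2 and Prrx1. Of 12 markers 11 were measured, and all 11 had log2 differences below 0, with a median of -0.89 and 3 at least 2-fold lower. Over all genes measured on both arrays, 52.6% had differences below 0 and 6.34% were at least 2-fold lower. The summed scaled signal of the list fell from 86.2 in wild-type liver to 42.1, and most of both sums came from Dcn and Ecm1. Des was well above background on neither array, and the lowest differences were those of Ecm1, at -1.34, and Lhx2, at -1.07. The part of these cells in the Snai2 value was not tested. In RNA of whole tissue, fewer cells of a type and less RNA per cell cannot be told apart.

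Snai3, the third member of the family (probe at chr8:124980233-124980292, minus strand, mm9), failed the background call on both arrays. Its signals of 3.15 and 3.01 were surrogate values that the software sets where a spot does not exceed its background, so no fold is given. Twist1 (chr12:34644411-34644470, plus strand), a basic helix-loop-helix factor that also represses Cdh1, was likewise well above background on neither array. Its signals were 2.81, a surrogate, and 8.24, wild-type liver first. The second signal exceeded the local background by the significance call but lay under the lowest signal well above background, 12.9, and gives no fold.

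Zeb1 and Zeb2 encode zinc-finger homeobox repressors of E-cadherin. The Zeb1 probe (chr18:5774613-5774672, plus strand) gave signals of 137.7 and 199.3, a log2 difference of 0.16 ± 0.21, which is smaller than its error. Zeb2 had 1 usable probe (chr2:44842774-44842833, minus strand), with signals of 85.1 and 162.3. Its log2 difference was 0.55 ± 0.21, or 1.47-fold higher, and 10.9% of all measured genes had a higher difference. The other Zeb2 probe (chr2:44840038-44840097), with signals of 3.03 and 3.28, failed the background call on both. With normexp the Zeb2 difference was 0.30, and without a filter on dim probes, where both probes are averaged, it was 0.04. In that setting signals under the lowest one well above background were raised to it. The dim probe therefore entered at a fixed difference of -0.47 and not at that of its own signals.

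**Figure D2:**
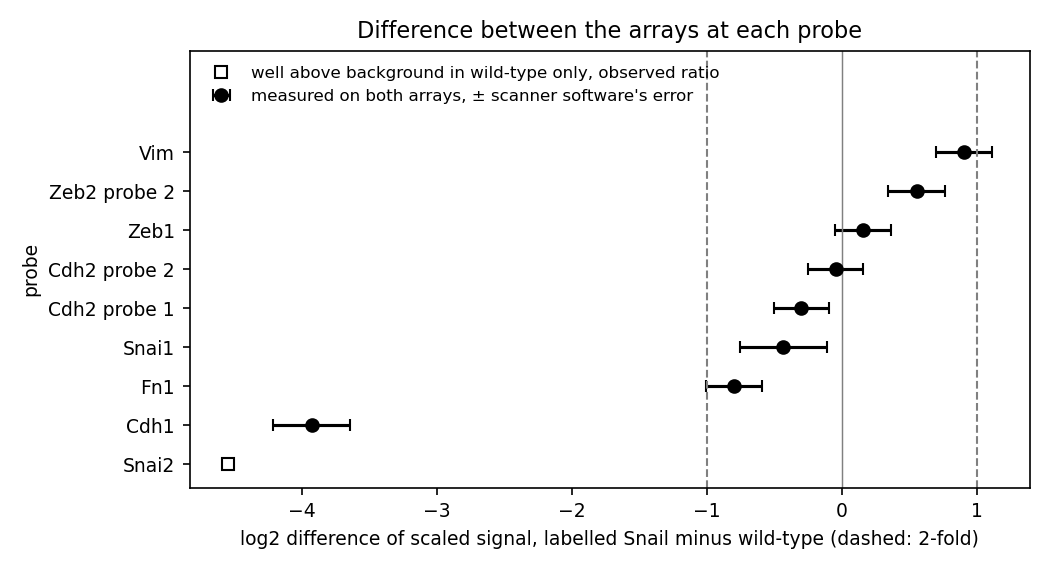
Log2 difference of scaled signal, library labelled Snail minus wild-type, at the 8 probes measured on both arrays, with bars for the scanner software's error, and the observed ratio of Snai2 (open square, no error bar); dashed lines mark 2-fold. Cdh1 at -3.93 and Snai2 at -4.55 lie beyond the dashed lines, and the other 7 points lie between them, from Fn1 at -0.80 to Vim at 0.90.

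Cdh1 was the only member printed many times on the array, at 10 spots. In wild-type liver the signal was 232.9 at the lowest spot, 263.0 at the median and 297.1 at the highest. In the library labelled Snail it was 18.4, 21.3 and 30.1 in the same order, so the spots of the 2 arrays did not overlap. The log2 difference was -3.93 on average, with an SD of 0.17 over the 10 spots and a range from -4.20 to -3.54. These spots are repeats within 1 pair of hybridizations and not replicates of animals. Of 15467 genes measured on both arrays, 42 (0.272%) had a lower difference than Cdh1.

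The size of the Cdh1 fold depends on how its dim signal is treated, by background correction and by any offset added. In the library labelled Snail the signal lay close to the lowest signal well above background, 12.9. With normexp the difference was -2.21, or 4.63-fold lower, and quantile normalization, median scaling and the authors' value table gave values within the technical spread of the main one.

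**Figure D3:**
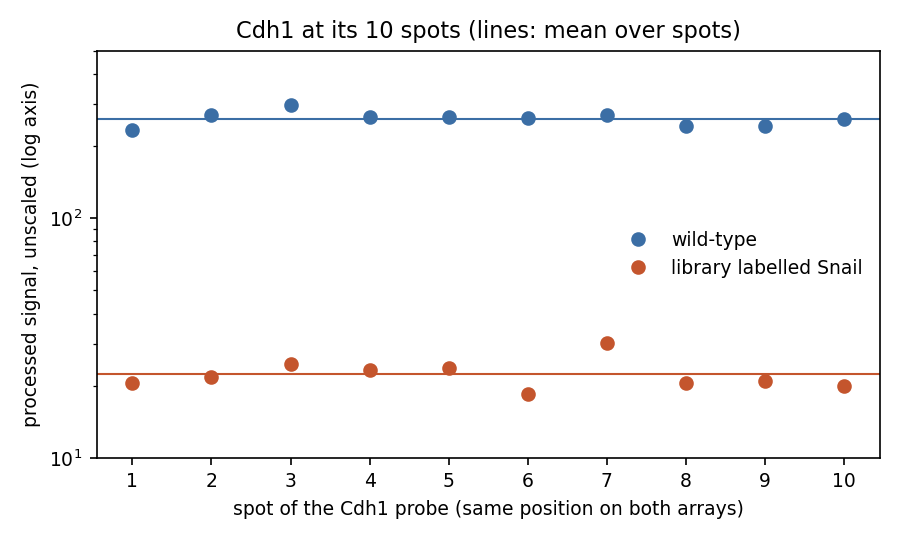
Processed signal (unscaled, log axis) at the 10 spots of the Cdh1 probe on each array, with lines at the mean over spots, 260.4 in wild-type liver (blue) and 22.4 in the library labelled Snail (orange). Every blue point, from 232.9 to 297.1, lies above every orange point, from 18.4 to 30.1.

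Cdh2 encodes N-cadherin, the cadherin that mesenchymal cells gain in EMT and that hepatocytes carry in normal liver. Its probes (chr18:16747386-16747445 and chr18:16747559-16747618, minus strand) gave signals of 3012 and 3176 at the first and 4308 and 5420 at the second, wild-type liver first in each pair. The log2 differences were -0.30 ± 0.20 and -0.05 ± 0.20, and their mean was -0.17. The probes differed by 0.26, about as much as the error of each. The 2 cadherin genes therefore changed unequally between these arrays: Cdh1 minus Cdh2 was -3.75 on the log2 scale.

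Vim encodes vimentin, the intermediate filament protein of mesenchymal cells. Its signals were 185.8 and 450.9, wild-type liver first. The scaled signal was 1.87-fold higher, a log2 difference of 0.90 ± 0.21, and 4.76% of measured genes had a higher difference. Fn1 (chr1:71632116-71632175, minus strand) encodes fibronectin, which is both a mesenchymal marker and a plasma protein of hepatocytes. Its probe gave 40518 in wild-type liver against 30225. The scaled signal was 1.74-fold lower, at -0.80 ± 0.20, and 9.22% of measured genes had a lower difference. Vim and Fn1, which are commonly read together as mesenchymal markers, thus lay 1.70 apart on the log2 scale, in opposite directions.

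Markers of cells that carry vimentin did not share 1 direction. The counts by sign below stand beside 52.6% of all measured genes with a difference below 0. Stellate markers had the lower values given above, whereas 10 measured endothelial markers of 11 had a median of 0.06, with Lyve1 at 1.99 and Cd34 at 1.39. Their summed scaled signals were 46.3 and 44.6, wild-type liver first. Of 10 Kupffer cell and macrophage markers 7 were measured, with a median of 0.13, Itgax 3.54-fold and Marco 2.83-fold higher, and the summed signals were 71.0 and 86.9. Of 10 markers of portal fibroblasts and smooth muscle 5 were measured, with a median of 0.32, Mfap4 at 0.60 and Tagln at 0.49, and the sums were 2.75 and 3.33. Of 7 neutrophil markers 4 were measured and all 4 were above 0, with a median of 1.24, S100a8 at 1.99 and S100a9 at 1.57. The other 3 passed the background call in the library labelled Snail alone, and the sums were 3.07 and 7.01, so this list moved in the direction of Vim. Of 7 T and NK cell markers 4 were measured, with a median of -0.78, Zap70 at -2.18 and Cd4 at -1.36, and sums of 19.3 and 5.63. Most of both sums came from Zap70. The T cell receptor genes Cd3e, at -0.20, and Cd3d, at 0.19, did not pass 2-fold, so the list had no common direction. Of 6 B cell markers 4 were measured, with a median of 0.52, Ms4a1 at 1.25 and Cd79a at -0.77, and sums of 1.09 and 1.58. The part of any of these cells in the Vim value was not tested. Hepatocyte markers, the cells of plasma fibronectin, had differences below 0 for 10 of 10, with a median of -0.67, Apoa1 at -3.04 and Tat at -1.33, and sums of 3596 and 2236. The part of this shift in the Fn1 value was not tested.

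Bile duct cells also carry E-cadherin. Of 10 cholangiocyte markers 5 were well above background on neither array, among them the defining genes Krt7, Krt19 and Epcam. The 4 measured markers had a median of 1.06, with Bicc1 at 3.48, Sox9 at 1.55 and, in the opposite direction, Slc4a2 at -0.48, and the summed scaled signals were 7.38 and 12.0, wild-type liver first. The part of these cells in the Cdh1 value was not tested.

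**Figure D4:**
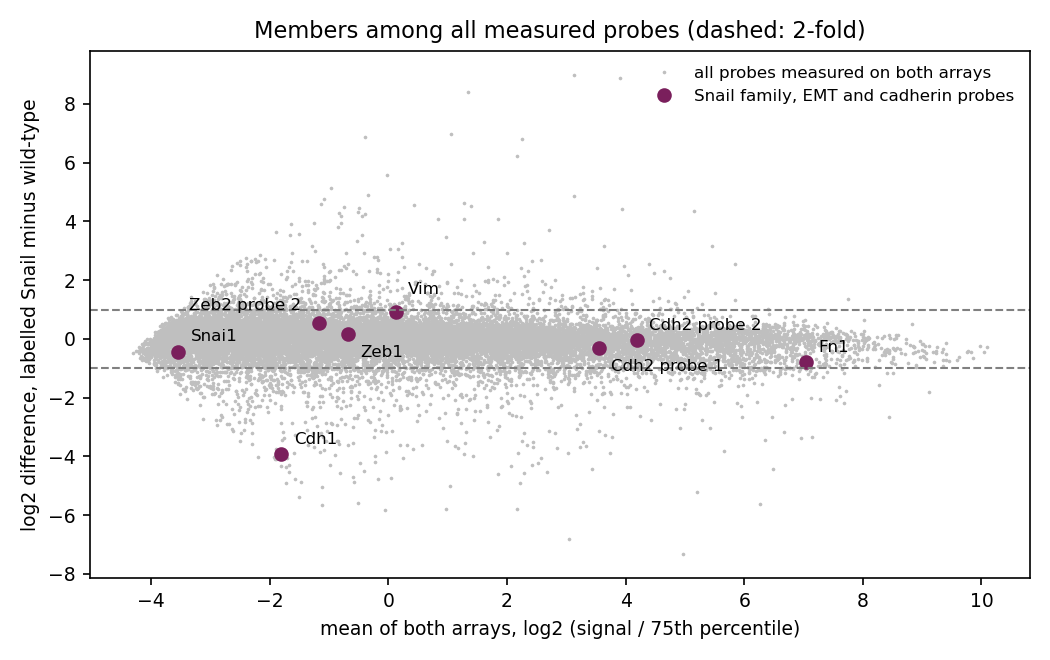
Log2 difference, library labelled Snail minus wild-type, against the mean scaled signal of both arrays (log2), for all probes measured on both (grey) and the 8 measured probes of the members (purple); dashed lines mark 2-fold. Cdh1 at -3.93 lies outside the grey band, and the other purple points lie within it, between -0.80 and 0.90.

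Other genes around Snail were examined as lists, each described by the counts and median of its measured members, beside the same over all genes. Of all measured genes 3.96% passed 2-fold higher and 6.34% lower, 52.6% were below 0, and the median was -0.03. Of 13 epithelial genes that Snail is known to repress, 9 were measured and 5 passed 2-fold in the lower direction, against 0 in the higher, and the median was -1.29. Cldn3, a claudin of tight junctions, gave signals of 4371 and 283, and Pkp2, a plakophilin of desmosomes, 1130 and 87.6. Occludin, encoded by Ocln, was 5.38-fold lower and the polarity gene Crb3 was 2.52-fold lower. The fifth was Llgl2, a basolateral polarity gene named after its value was seen, at 2.44-fold lower. Members that did not pass 2-fold included the claudin gene Cldn1, at 0.05, and the desmoplakin gene Dsp, at 0.00.

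The E-box that Snail binds was searched in the 250 bases before each transcript start of RefSeq on GRCm38.p6, as CAGGTG on either strand, and is shown in capitals. It was present before 17.2% of 32851 starts and for 19.4% of 27025 genes. Of the 13 epithelial genes 11 had such sequence, and 8 of the 11 held the letters. Among the 8, Muc1, Epcam, Vdr and Cldn4 were not measured on both arrays. Among the genes past 2-fold lower, Crb3 and Ocln held the letters, Cldn3 did not, and Pkp2 and Llgl2 had no such sequence. The list was made of known Snail targets, so its share is no result of these arrays. Crb3 is shown as a gene past 2-fold that held the letters more than once. Snai1 is shown as the only member, of the 4 searched, that held them.
Crb3, chr17:57062068-57062200, plus strand: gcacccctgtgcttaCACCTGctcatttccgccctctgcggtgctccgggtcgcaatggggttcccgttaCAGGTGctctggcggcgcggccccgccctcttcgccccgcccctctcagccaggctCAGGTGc
Snai1, chr2:167538054-167538089, plus strand: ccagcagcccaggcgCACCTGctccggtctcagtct
Crb3 held 3 copies and Snai1 held 1, which began 126 bases before the start. Ocln held 2 before 1 of its 2 starts, and Krt18, at -0.82, held 1. Cldn3, with the lowest difference of the list, held none in this window, nor did Cldn1 or Dsp. Of the member genes with such sequence, Vim, Zeb2 and Twist1 held none. For Cdh1, Snai2, Snai3 and Fn1 no such sequence was at hand, and Zeb1 and Cdh2 were not searched. The search therefore says nothing about an E-box before Cdh1. A match is a run of letters and not a measured binding site.

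Among 13 other EMT transcription factors 5 were measured, with 1 past 2-fold in each direction and a median of 0.78. Sox9, a factor of bile duct and progenitor cells, was 2.92-fold higher, and the forkhead factor Foxq1 was 3.49-fold lower. Sox4 had a difference of 0.87 and the E-protein gene Tcf3 one of 0.78. A further 6, among them Twist2, Foxc2 and Gsc, were well above background on neither array. The list's median turned to -0.47 without a filter on dim probes, where the median of all genes was also -0.47. That is the fixed value of a probe under the lowest signal well above background on both arrays, and not a measured change. Factors that keep the epithelial state went the other way, with 9 of 16 measured, 7 of them below 0, 1 past 2-fold lower and a median of -0.55. Foxa3, a forkhead factor of hepatocytes, was 3.52-fold lower, the splicing regulator Esrp2 had a difference of -0.88, Foxa1 one of -0.59 and Klf4 one of 0.79.

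Of 21 other cadherin genes 6 were measured, and none of the 6 was 2-fold apart, with a median of -0.01. That median became 0.24 with a stricter filter (a signal of at least 100 on at least 1 array). Without a filter it was -0.47, the same fixed value of dim probes. The endothelial cadherin gene Cdh5 had a difference of 0.05, Cdh6 one of -0.67, Cdh8 one of -0.22, Cdh13 one of -0.06, Cdh18 one of 0.24 and Cdh26 one of 0.27. Cdh22 was well above background only in wild-type liver and was at least 2.07-fold lower. Cdh1 thus had the lowest difference of the 8 cadherin genes measured on both arrays. Among 13 catenins and nectins, the partners of cadherins at the adherens junction, 8 were measured, and 1 passed 2-fold lower and 0 higher around a median of -0.15. Without a filter the median was again the fixed -0.47. The vinculin gene Vcl was 2.06-fold lower, Nectin2 had a difference of -0.69, the afadin gene Afdn one of -0.56 and Nectin3 one of 0.62. The alpha-catenin gene Ctnna2, well above background in wild-type liver alone and at 1 of its 2 probes, was at least 2.02-fold lower there.

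Corepressors and chromatin partners of Snail were nearly all present, with 19 of 20 measured, 1 past 2-fold higher, 0 past 2-fold lower and a median of 0.10. Wtip, a LIM protein of the Ajuba family, was 4.69-fold higher, with signals of 98.2 and 597.6. Ajuba had a difference of 0.90, and Kdm1a, the histone demethylase that binds the Snail N-terminus, one of 0.38. The probes of Ehmt1 disagreed, at -1.07 and 0.33. Of 18 enzymes that act on Snail protein 14 were measured, 13 of them above 0 and 1 past 2-fold higher, and the median was 0.31. Ctdspl, of a family of small C-terminal domain phosphatases, was 2.57-fold higher, and the F-box genes Fbxl5 and Fbxo11 had differences of 0.52 and 0.51. Lats2, a kinase known to stabilize Snail, had one of 0.48.

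Mesenchymal genes beside Vim and Fn1 had a median of 0.67, with 12 of 18 measured, 3 past 2-fold higher and 0 lower. Lgals1, S100a4 and Col1a1 were the 3, at 5.35-fold, 2.55-fold and 2.50-fold, and Col3a1 had a difference of 0.95. Tnc, Mmp2, Mmp9 and Lox were well above background on neither array. Among fibronectin receptors and matrix partners 8 of 13 were measured, with a median of 0.24 and 1 past 2-fold, in the lower direction. The syndecan gene Sdc4, whose product binds fibronectin at focal adhesions, was 4.05-fold lower, and the integrin genes Itga5, Itga4 and Itgb3 had differences of 0.99, 0.59 and -0.82. The fibulin gene Fbln1 passed the background call in the library labelled Snail alone, at 1 of its 2 probes, and was at least 6.86-fold higher there. Its other probe failed the call on both arrays. Of 14 other intermediate filament genes 8 were measured and 1 passed 2-fold, in the higher direction, around a median of 0.31. That 1 was the keratin gene Krt23, at 3.92-fold, while Krt18 had a difference of -0.82, Lmnb1 one of -0.66 and Lmna one of 0.58. Without a filter on dim probes the median was -0.47, next to the fixed value of dim probes.

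Among 19 signals that induce Snail 17 were measured, 1 past 2-fold higher and 2 past 2-fold lower, and the median was -0.09. The TGF-beta receptor gene Tgfbr2 was 2.11-fold higher. The EGF receptor gene Egfr had mean signals of 1907 and 207.2 over its 3 probes and a difference of -3.70, and Bmp4 was 2.16-fold lower. Bmp7, a ligand known to oppose TGF-beta in epithelial cells, had a difference of -0.83.

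**Figure D5:**
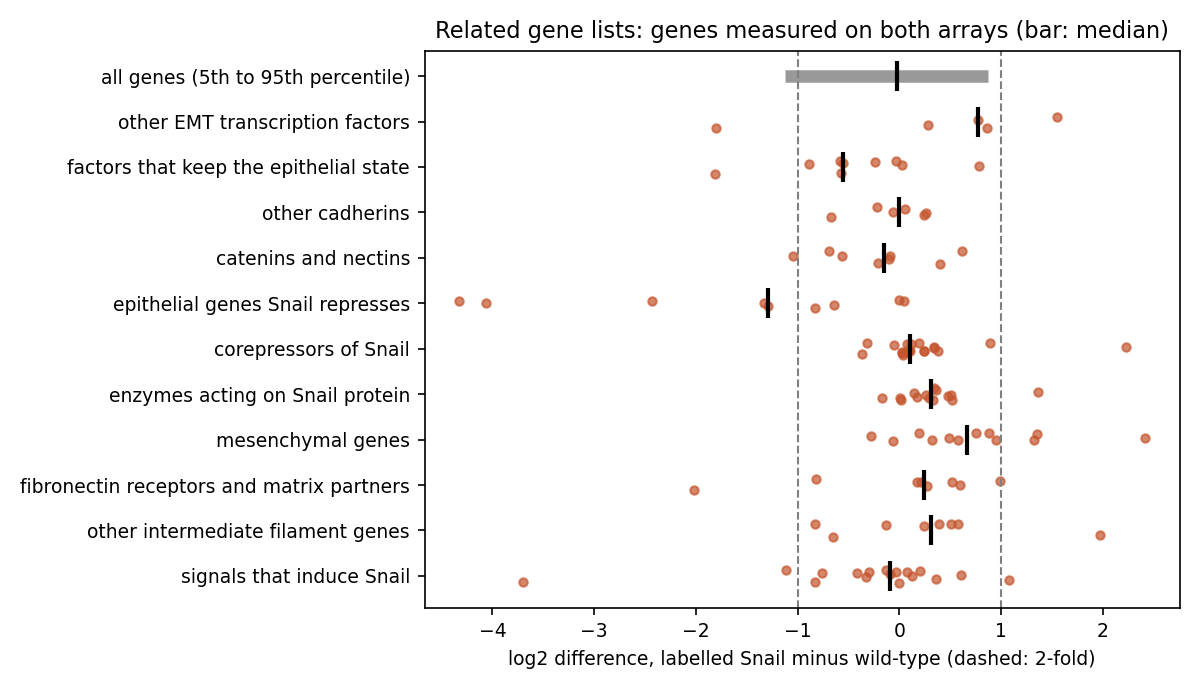
Log2 difference, library labelled Snail minus wild-type, of each gene measured on both arrays (points) in 11 lists of related genes, with a vertical bar at each list's median and a grey band from the 5th to the 95th percentile of all genes; dashed lines mark 2-fold. The median of the epithelial genes that Snail represses lies lowest, at -1.29, and that of the other EMT transcription factors highest, at 0.78, over 5 genes.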

How the data were processed

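The authors deposited the scanner output of 2 one-colour arrays; the submitters' processing notes name Agilent Feature Extraction 9.5.1.1. The deposited intensity values had their background subtracted and detrended within each array by that software, per the file headers, and carry no scaling across arrays. Probe positions are those of the files, on mm9. The authors' value table holds intensity values on a linear scale with a median of 17.3 in each column, and it served as an alternative. How it was normalized is not stated in the sources used here. Its differences were nearly those of quantile normalization, with Zeb2 at 0.56 and Fn1 at -0.53 in both, so the 2 are not separate checks.

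Control spots and spots marked as outliers were left out. Log2 of the processed signal minus the array's 75th percentile was averaged over the spots of a probe, and over the probes of a gene well above background on both arrays. Genes seen on 1 array only have a bound: the bright scaled signal over the lowest signal well above background on the dim array, or over the probe's own signal where that was higher, then called observed; only probes well above background on that array enter a bound. Genes were named by accession through RefSeq (GRCm38.p6), and otherwise by the scanner files. Technical spread was the median SD of the log2 difference over spots at the same position, for probes with at least 5 usable spots: 0.08 over 239 probes and 0.19 for signals under 100. The code was tested on simulated data. Tools were Python 3.11.15, pandas 2.3.3 and limma 3.58.1 (normexp, offset 50).

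No test was run with 1 array per group, and it is the number of arrays that limits the precision. The members, 11 lists of related genes and 11 cell type lists were chosen with earlier results of these data known. Named are all members, the 4 genes with the largest absolute differences of each related list, bounds of at least 2-fold, every measured cadherin and 2 markers of each cell type, except 1 gene that is not reported here. Genes listed as well above background on neither array, or cited as not past 2-fold or for their E-box, were named after their values were seen, as was Dcn. The alternatives were normexp, quantile normalization, median scaling, the value table, a signal of at least 100 on at least 1 array, no filter, outlier spots kept and the brightest probe of a gene. Without a filter, signals under the lowest one well above background on their array were raised to it. A probe under it on both arrays then had a fixed difference of -0.47.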

Additional observations from a re-analysis of the deposited data

How the results depend on the processing

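Over 8 alternatives the number of members at least 2-fold lower stayed at 1, except without a filter on dim probes, where it was 2 of 10 (Cdh1 and Snai2). The number at least 2-fold higher was 0 in all 8. Not every alternative could move the members' values. No member spot was marked as an outlier, the brightest probe changed Cdh2 alone, and the stricter filter removed Snai1 without altering other members' values. The authors' value table gave nearly the values of quantile normalization. The sign of each of the 7 measured members' differences was kept under every alternative that gave it a value, and Snai1 had none under the stricter filter. Ranges were -3.99 to -2.21 for Cdh1, -0.50 to -0.27 for Snai1, 0.09 to 0.18 for Zeb1, 0.04 to 0.56 for Zeb2, -0.24 to -0.05 for Cdh2, 0.80 to 0.93 for Vim and -0.86 to -0.53 for Fn1. The observed Snai2 difference lay between -4.61 and -2.36. The list of epithelial genes had medians from -1.35 to -0.65, and that of mesenchymal genes from 0.41 to 0.82. Over all genes, 980 were at least 2-fold lower and 613 higher, but 572 and 297 with normexp. The offset of 50 in normexp by itself draws ratios of dim signals toward 1. How much of the fall in these counts came from the offset was not tested. Without a filter the median of all genes moved by -0.45, and the medians of 5 lists (other EMT transcription factors, factors that keep the epithelial state, other cadherins, catenins and nectins, and intermediate filament genes) stood at -0.47. That is the difference fixed by this setting for probes under the lowest signal well above background on both arrays. Medians at or next to it reflect how many genes were dim and measure no change. The list medians of -0.65 and 0.41 came from the same setting. The median of the other cadherins was 0.24 under the stricter filter. Signals near background limit Snai1, Cdh1 and Snai2, and 1 array per group limits every value. No paired analysis was possible because each group has 1 array.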

Other observations

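The remaining cell type lists hold genes of cells that could be present in whole liver. A single mesothelial marker of 5 was measured, Msln, with a log2 difference of -0.47. Of 6 adipocyte markers 2 were measured, Cidec, a lipid droplet gene that fatty hepatocytes are also known to express, at 6.88, and Fabp4 at 0.48, while Adipoq, Lep, Plin1 and Retn were well above background on neither array. The Cidec value rests on 1 of its 2 probes. Mean signals over both were 10.1 and 1280, wild-type liver first. The lowest wild-type signal well above background was 13.8, so the size of this fold rests on a dim signal.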
